A study of Mus musculus with 24 samples.

Results

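The comparison is the effect of interleukin-10 (IL-10) on wild-type mouse eosinophils, pooled over the presence of granulocyte-macrophage colony-stimulating factor (GM-CSF). Its members are all 12 wild-type libraries of the 24 in the series, 6 with IL-10 and 6 without, chosen by the treatment that the labels give. RNA was sequenced from eosinophils grown out of C57BL/6 bone marrow with stem cell factor and FLT3 ligand, each at 100 ng/ml, up to day 4 and with interleukin-5 (IL-5) at 10 ng/ml afterwards. On day 13 the cells were cleared of dead cells and kept overnight, in 4 groups of 3 libraries: IL-10, IL-10 and GM-CSF, untreated, and GM-CSF. All 4 groups went on receiving IL-5 at 10 ng/ml, so "untreated" means IL-5 alone. GM-CSF was given at 20 ng/ml, while the sources used here state neither the dose of IL-10 nor the age of the donor mice. Each gene was fitted with 1 term for IL-10 and 1 for GM-CSF, so that the IL-10 term compares 6 libraries with 6 after the GM-CSF difference is taken out. The labels do not say whether the replicates came from separate animals or cultures, and the p-values measure only the spread between these libraries.

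IL-10 acts on leukocytes through a receptor of 2 kinds of chain, IL10RA, which binds the cytokine, and IL10RB, which is shared with related cytokines. The chains carry the kinases JAK1 and TYK2, which phosphorylate the transcription factor STAT3. In macrophages, where the pathway is best known, STAT3 raises the feedback inhibitor SOCS3, the nuclear IkB protein BCL3 and the co-repressor SBNO2, and the output of inflammatory cytokines such as TNF falls. Eosinophils are granulocytes that IL-5 and GM-CSF keep alive, and they carry ready-made granule proteins such as major basic protein (Prg2) and eosinophil peroxidase (Epx).

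The libraries with IL-10 held 11653200 to 18709153 counts and those without 11881294 to 18295944. Prg2 stood at 41300 to 45800 CPM with IL-10 and at 39900 to 45400 CPM without it, and Cd3e, which marks T cells, at no more than 0.133 CPM in any of the 12 libraries. CPM values are gene counts scaled to a common library total with trimmed mean of M values (TMM) factors. They are not divided by gene length, so they compare libraries and not genes. Among the 6 libraries with GM-CSF, a pair stood apart: IL-10 and GM-CSF replicate 3, with 15196 genes counted against 13833 to 14189 in the other 11, and GM-CSF replicate 2. On the second principal component, which held 18.6% of the variance, they lay at 13.5 and 13.7, against -25.2 to -7.1 for the other 4. On the first, with 32.9%, they lay at 27.6 and 27.3, and 4 libraries without GM-CSF lay at the other end at -20.6 to -19.8. The sum of 4 Y-linked genes split the libraries within every group. It was 171 to 181 CPM in 3 libraries with IL-10 and 46.8 to 60.7 CPM in the other 3, against 172 to 178 CPM and 52.4 to 57.6 CPM without IL-10, 3 libraries each. The split was uneven between the GM-CSF settings. The high libraries were IL-10 replicate 3, untreated replicate 1, IL-10 and GM-CSF replicates 1 and 3, and GM-CSF replicates 1 and 2. The 4 libraries at -20.6 to -19.8 on the first component all had a low sum.

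IL-10 changed few genes in these cells, and nearly all of them were higher. Of 11567 genes tested, 52 were called, which is 0.45%. Of these, 50 were higher with IL-10 (0.432% of the genes tested) and 2 were lower (0.0173%). The threshold for a call was an adjusted p under 0.05, by edgeR's quasi-likelihood test with Benjamini-Hochberg adjustment over all genes tested. The 50 higher genes had log2 fold changes between 0.24 and 2.64 with a median of 0.59, a ratio of 1.5, and 14 of them were higher by at least 2-fold, while the median of all tested genes was 0. At an unadjusted p under 0.05 the directions were closer, with 611 genes higher (5.28%) and 496 lower (4.29%). In 33 of the 50 higher genes the lowest of the 6 libraries with IL-10 lay above the highest of the 6 without, a pattern that 68 tested genes showed (0.588%). The reverse held for 24 tested genes (0.207%), of which 1, Tecpr1, was a called gene. Without the 2 libraries that stood apart, 109 genes were higher and 15 lower, and all 52 genes were among them. Removing IL-10 and GM-CSF replicate 3 alone gave 92 calls, removing IL-10 replicate 1 gave 33 and removing IL-10 replicate 2 gave 30. The lopsided directions depended on the test: DESeq2 called 120 genes higher and 43 lower, and a model that also held the summed Y-linked level called 132 higher and 45 lower. In bulk RNA, fewer cells of a type and less RNA per cell cannot be told apart.

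**Figure D1:**
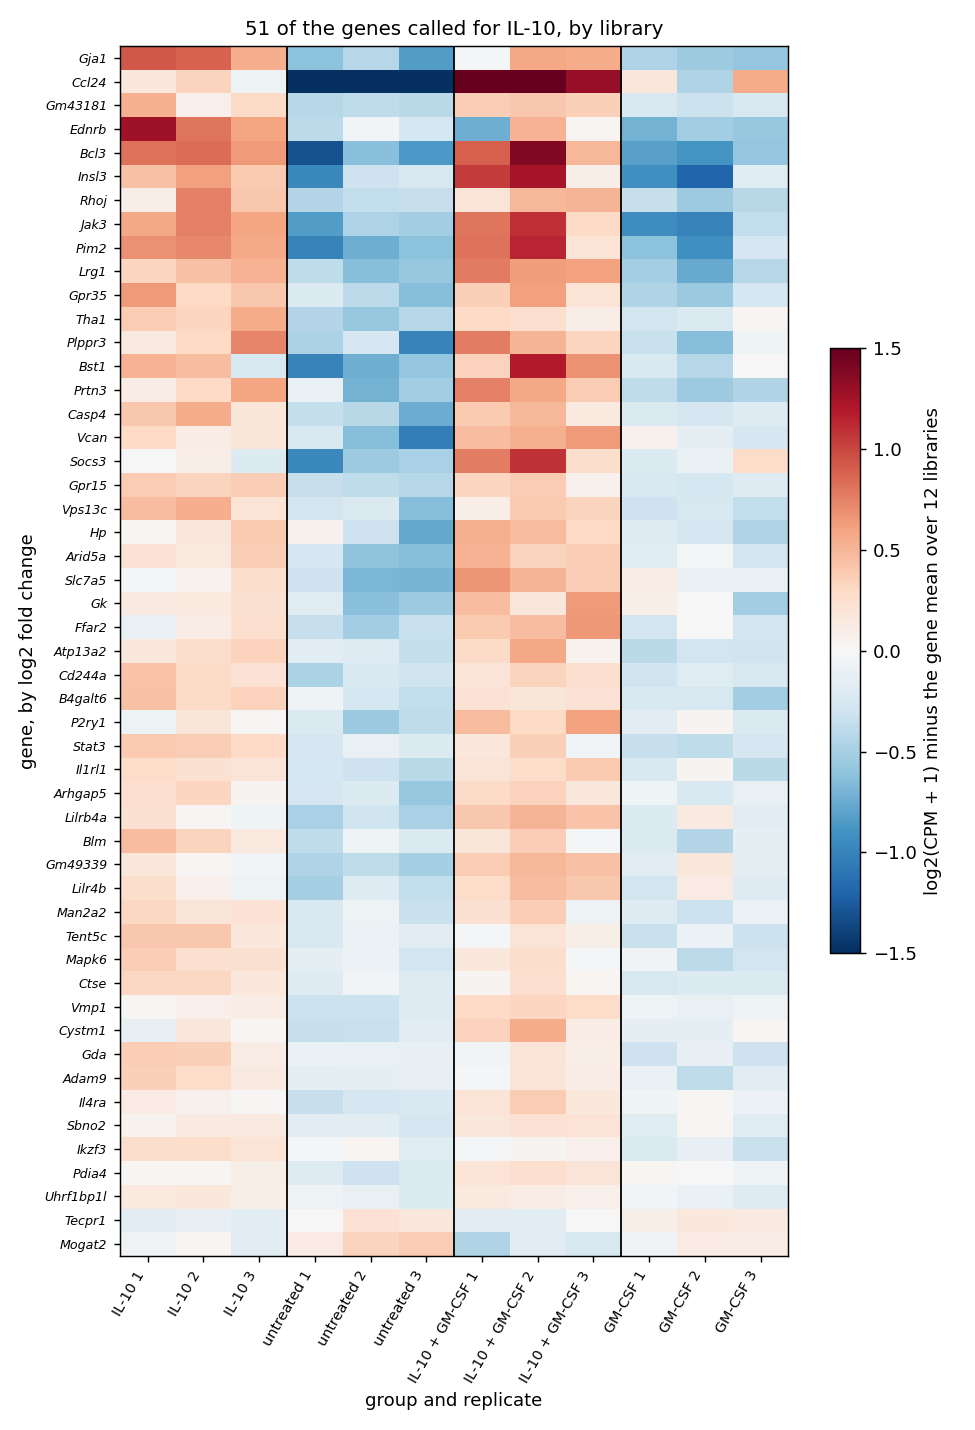
Level of 51 of the 52 called genes (rows, ordered by log2 fold change) in each of the 12 libraries (columns), as log2(CPM + 1) minus the gene's mean over the libraries; colours are capped at 1.5 in either direction, which Ccl24 exceeds. The higher genes are mostly red in the IL-10 and the IL-10 and GM-CSF columns, and Tecpr1 and Mogat2 in the last rows run the other way.

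The receptor chains themselves did not pass the test, while the transcription factor below them and a further kinase did. Stat3 (ENSMUSG00000004040, chromosome 11, 100885098 to 100939540, minus strand of GRCm38), which encodes the main transcription factor of the pathway, stood at 350, 342 and 328 CPM under IL-10 alone and 299, 340 and 258 CPM with IL-10 and GM-CSF, against 223, 245 and 230 CPM in untreated cells and 208, 204 and 222 CPM under GM-CSF alone. All 6 libraries with IL-10 lay above all 6 without. The log2 fold change was 0.52 ± 0.06 (SE) with an adjusted p of 0.000936. Its exons overlap Stat5a on the opposite strand. Jak3 (chromosome 8, 71676296 to 71690575, plus strand), the kinase bound by the common gamma chain of the interleukin-2 receptor family, stood at 114, 129 and 115 CPM under IL-10 alone and 133, 164 and 93.7 CPM with both cytokines. Without IL-10 it stood at 42.1, 54.9 and 52.5 CPM in untreated cells and 39.4, 37.6 and 58.6 CPM under GM-CSF alone. It rose by a log2 fold change of 1.40 ± 0.15 (adjusted p = 0.000773), with no overlap of the groups. Insl3, which encodes an insulin-like peptide of the testis, shares exon sequence with the 3′ end of Jak3 on the same strand, and its call (1.52 ± 0.28, adjusted p = 0.0296) cannot be told apart from that of Jak3 by these gene counts. Leaving out untreated replicate 1, GM-CSF replicate 1, IL-10 and GM-CSF replicate 1, or IL-10 replicate 1 or 2, took away the call of Insl3 (adjusted p = 0.0625 to 0.084).

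Il10ra, the ligand-binding chain, stood at 156, 150 and 143 CPM under IL-10 alone and 146, 167 and 96.1 CPM with both cytokines, against 133, 168 and 162 CPM in untreated cells and 144, 123 and 174 CPM under GM-CSF alone. The groups overlapped and the log2 fold change was -0.08 ± 0.12 (adjusted p = 0.879). Il10rb stood at 33.0 to 42.3 CPM in the 6 libraries with IL-10 and 34.2 to 43.2 CPM in the 6 without (0.00 ± 0.07, adjusted p = 0.997), and part of its exon sequence is shared with the predicted gene Gm21970. The receptor kinases Jak1 (0.05 ± 0.06, adjusted p = 0.808) and Tyk2 (-0.09 ± 0.05, adjusted p = 0.652) did not pass either. Over the whole list of 13 receptor, JAK and STAT genes, 2 were higher, Stat3 and Jak3, none was lower, and the median log2 fold change was 0, the same as over all genes. The other 6 STAT genes had values between -0.04 and 0.05.

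Among genes known as targets of IL-10 and STAT3 in myeloid cells, 6 of the 28 tested were higher (21.4%, against 0.432% of all genes) and none was lower. The list's median log2 fold change was 0.14, against 0 for all genes. The list was chosen with earlier results of these data known, so its share is a description only. Bcl3 (ENSMUSG00000053175, chromosome 7, 19808462 to 19822770, minus strand), which encodes a nuclear IkB protein that binds NF-kB p50 and p52, stood at 26.7, 27.1 and 23.4 CPM under IL-10 alone and 28.2, 40.0 and 21.1 CPM with IL-10 and GM-CSF. Without IL-10 it stood at 5.35, 9.20 and 7.67 CPM in untreated cells and 7.92, 7.43 and 9.53 CPM under GM-CSF alone. Every library with IL-10 was above every library without, and the lowest was 21.1 CPM against a highest of 9.53 CPM. The log2 fold change of 1.83 ± 0.15 (adjusted p = 5.45e-05) corresponds to a ratio of 3.55. Lrg1 (ENSMUSG00000037095, chromosome 17, 56119678 to 56122001, minus strand), which encodes a secreted leucine-rich glycoprotein of the acute phase, stood at 9.47, 10.3 and 11 CPM under IL-10 alone and 13.3, 11.9 and 11.7 CPM with both cytokines, against 5.41, 4.34 and 4.62 CPM in untreated cells and 4.84, 3.93 and 5.20 CPM under GM-CSF alone. It rose by 1.25 ± 0.11 (adjusted p = 5.45e-05) with no overlap. Bcl3 and Lrg1 had the smallest p-values of all 11567 genes.

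Socs3 (ENSMUSG00000053113, chromosome 11, 117966079 to 117970047, minus strand), the feedback inhibitor of JAK kinases, rose with less margin. It stood at 42.8, 45.5 and 36.8 CPM under IL-10 alone and 73.0, 91.3 and 51.2 CPM with both cytokines, against 21.3, 28.8 and 30.1 CPM in untreated cells and 36.8, 39.5 and 51.7 CPM under GM-CSF alone. Without GM-CSF the 2 groups of 3 did not overlap, and with GM-CSF the lowest library with IL-10 lay just under the highest without. The log2 fold change was 0.70 ± 0.14 (adjusted p = 0.0478). The call was lost when any 1 of 10 of the 12 libraries was left out (adjusted p = 0.059 to 0.156) and held without GM-CSF replicate 3 or without IL-10 and GM-CSF replicate 3. None of the other 14 SOCS, PIAS and phosphatase genes tested was called, and their log2 fold changes ran from -0.15 to 0.10, with Socs1 at -0.01 and Cish at -0.09.

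Arid5a, an RNA-binding protein known for stabilising Il6 transcripts, stood at 24.7 to 32.3 CPM in the libraries with IL-10 and 13.9 to 21.9 CPM in those without (0.67 ± 0.09, adjusted p = 0.00116). Sbno2, the co-repressor downstream of IL-10 in macrophages, stood at 151, 160 and 160 CPM under IL-10 alone and 164, 169 and 168 CPM with both cytokines, against 129, 129 and 122 CPM in untreated cells and 128, 149 and 128 CPM under GM-CSF alone. The rise of 0.31 ± 0.05 (adjusted p = 0.0102) was small and free of overlap, and without IL-10 replicate 2 its adjusted p was 0.0571. Il4ra, the chain shared by the receptors for interleukin-4 and interleukin-13, rose by 0.32 ± 0.05 (adjusted p = 0.0102), with 141 to 182 CPM in libraries with IL-10 and 109 to 141 CPM in those without. Leaving out replicate 1 of the IL-10 group gave an adjusted p of 0.0551, and leaving out replicate 2 gave 0.0537. The next members by p were Batf, an AP-1 family factor (0.36 ± 0.09, adjusted p = 0.098), and Il6st, the gp130 receptor chain (0.70 ± 0.19, adjusted p = 0.181), neither of which passed. DESeq2 (adjusted p = 0.0206) and the model with the Y-linked sum (0.0297) called Batf higher. Il6st was called higher by DESeq2 (0.0273), without the 2 libraries that stood apart (0.0261) and with a replicate block read from title numbers (0.0392). Neither was called by limma-voom or in a model of all 24 libraries. Etv3, Nfil3, Hmox1 and Il1rn, which IL-10 raises in macrophages, were at 0.26, 0.14, 0.15 and -0.13 and did not pass. The model with the Y-linked sum called Etv3 higher. Zfp36 was at -0.04 and Dusp1 at -0.32.

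**Figure D2:**
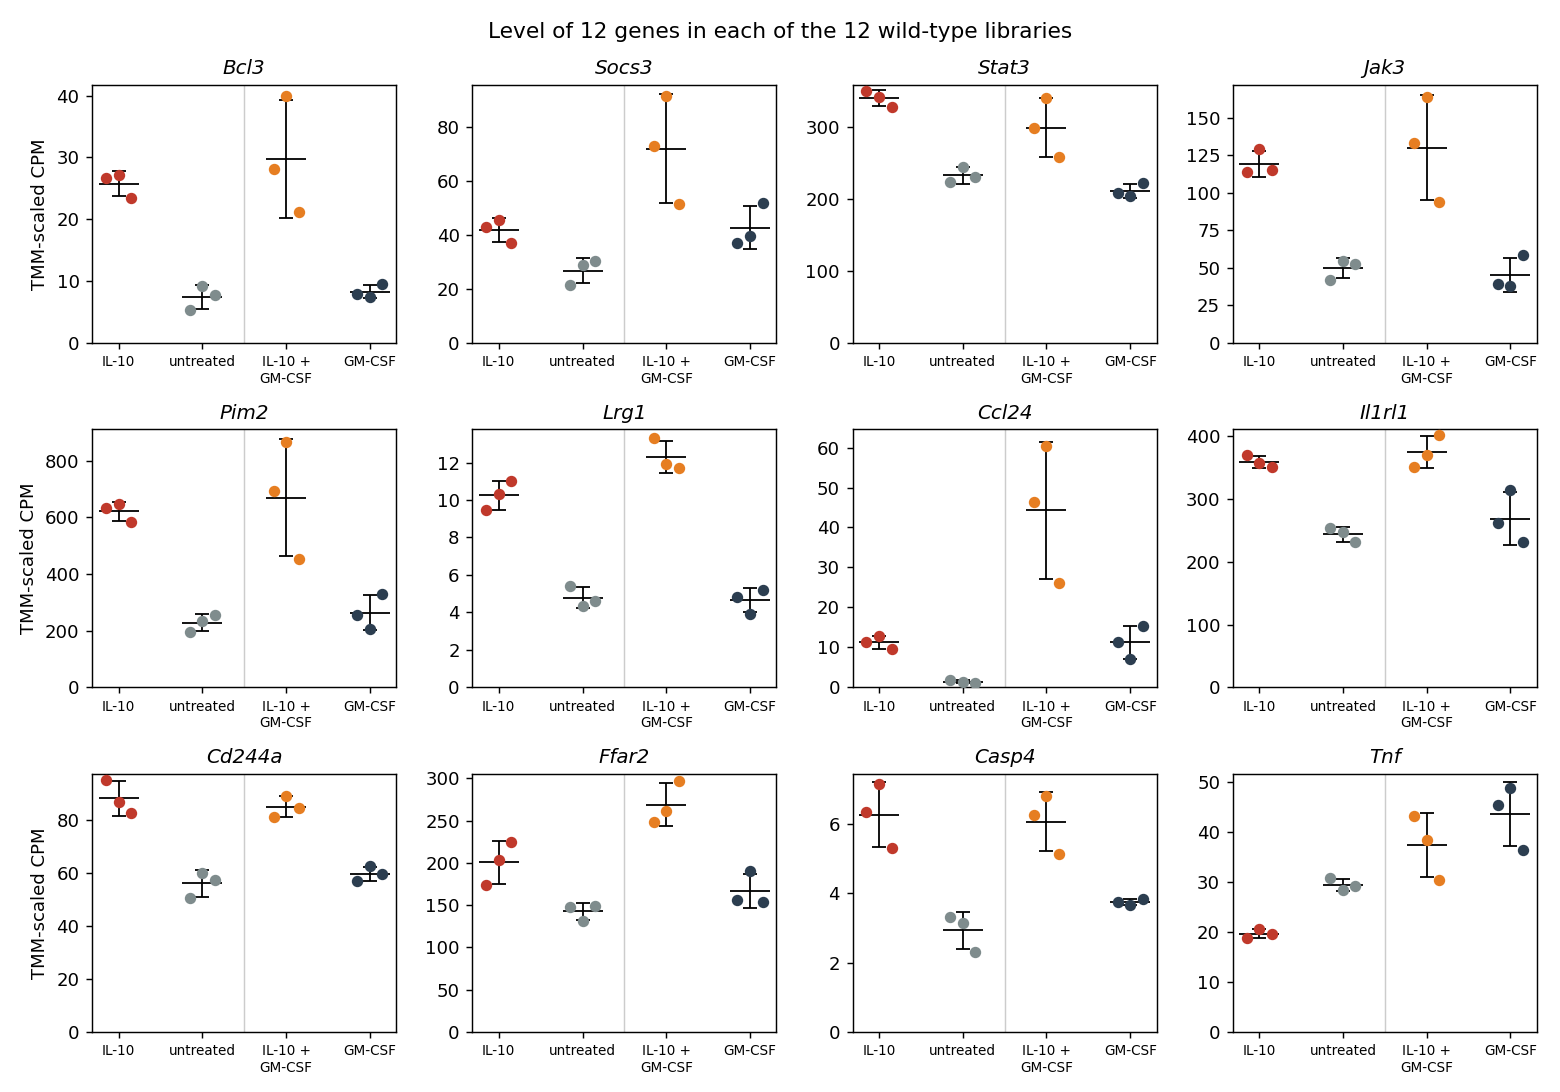
TMM-scaled CPM (vertical axes, from 0) of 12 genes in each of the 12 libraries, with 3 points per group and the mean and SD as bars; the grey line separates the groups without and with GM-CSF. In Bcl3, Stat3, Jak3, Pim2, Lrg1, Il1rl1, Cd244a and Casp4 all 6 libraries with IL-10 lie above all 6 without, Ccl24 is lowest in the untreated group, and Tnf, which was not called, runs lower with IL-10.

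STAT factors bind palindromic sites of the form TTCNNNGAA, with TTCCNGGAA as a stricter form, and both were searched in RefSeq promoter windows of GRCm38.p6. A window runs from 250 bases before to 50 after an annotated start site, each string reads the same on both strands, and every TTCCNGGAA match is also a TTCNNNGAA match. Windows could be matched by symbol for 35 of the 50 higher genes. TTCNNNGAA was found for 5 of the 35 genes (14.3%), against 756 of 8987 tested genes with a window (8.41%) and 2582 of 27025 genes in all (9.55%). TTCCNGGAA was found for 2 of the 35, Sbno2 and Uhrf1bp1l (5.71%), against 140 of 8987 tested genes (1.56%) and 364 of 27025 in all (1.35%). The window of Socs3, the feedback inhibitor, and 2 of the 3 windows of Sbno2, the co-repressor, hold a match, and those of Bcl3 and Lrg1, the genes with the smallest p-values, hold neither string. They are printed 5′ to 3′ on the strand of the gene, with the match in capitals. The 9-base match starts 154 bases before the start site in Socs3 and 26 or 24 bases before it in the windows of Sbno2. A match is a run of letters, not a measured binding site, and its absence covers only this window.
Socs3, chr11:117969317-117969616, minus strand: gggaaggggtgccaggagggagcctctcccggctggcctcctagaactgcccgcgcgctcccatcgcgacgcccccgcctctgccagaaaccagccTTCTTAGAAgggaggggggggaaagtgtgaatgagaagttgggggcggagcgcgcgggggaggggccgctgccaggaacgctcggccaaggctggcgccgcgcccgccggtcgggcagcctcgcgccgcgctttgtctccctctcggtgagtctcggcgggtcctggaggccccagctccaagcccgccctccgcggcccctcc
Sbno2, chr10:80102653-80102952, minus strand: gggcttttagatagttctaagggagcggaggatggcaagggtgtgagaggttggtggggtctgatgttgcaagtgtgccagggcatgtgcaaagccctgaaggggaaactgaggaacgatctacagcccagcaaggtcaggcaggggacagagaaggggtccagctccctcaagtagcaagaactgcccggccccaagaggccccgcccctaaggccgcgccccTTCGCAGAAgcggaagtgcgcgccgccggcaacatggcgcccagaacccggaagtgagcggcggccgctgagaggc
Sbno2, chr10:80101138-80101437, minus strand: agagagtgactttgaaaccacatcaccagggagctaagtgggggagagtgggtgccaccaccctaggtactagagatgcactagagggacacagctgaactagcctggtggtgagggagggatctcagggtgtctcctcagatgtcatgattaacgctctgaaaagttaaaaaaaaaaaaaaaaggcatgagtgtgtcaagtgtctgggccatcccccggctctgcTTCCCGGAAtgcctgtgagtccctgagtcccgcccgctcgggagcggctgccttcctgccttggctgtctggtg
Bcl3, chr7:19822706-19823005, minus strand: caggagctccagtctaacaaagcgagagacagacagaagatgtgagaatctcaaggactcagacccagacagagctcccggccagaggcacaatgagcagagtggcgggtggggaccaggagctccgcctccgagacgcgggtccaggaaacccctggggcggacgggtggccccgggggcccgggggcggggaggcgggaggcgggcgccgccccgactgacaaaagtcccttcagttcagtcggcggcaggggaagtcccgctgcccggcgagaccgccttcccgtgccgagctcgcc
Lrg1, chr17:56121897-56122196, minus strand: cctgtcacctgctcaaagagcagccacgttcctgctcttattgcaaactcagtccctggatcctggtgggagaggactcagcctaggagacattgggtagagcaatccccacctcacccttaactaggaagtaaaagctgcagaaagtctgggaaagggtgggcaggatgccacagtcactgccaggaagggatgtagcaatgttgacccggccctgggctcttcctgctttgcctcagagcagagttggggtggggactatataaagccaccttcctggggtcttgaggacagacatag

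The survival kinase gene Pim2 and the amino acid transporter gene Slc7a5 rose, with no call in the lists for growth and metabolism. Pim2 (chromosome X, 7878262 to 7883432, plus strand), a constitutively active serine/threonine kinase that cytokines raise to support survival, stood at 633, 646 and 584 CPM under IL-10 alone and 691, 864 and 452 CPM with both cytokines. Without IL-10 it stood at 195, 235 and 255 CPM in untreated cells and 256, 207 and 328 CPM under GM-CSF alone. The lowest library with IL-10 was above the highest without, and the log2 fold change was 1.39 ± 0.15 (adjusted p = 0.000773). Pim1, its relative, was at 0.15 and not called. Slc7a5, the transporter of large neutral amino acids, stood at 83.6 to 136 CPM with IL-10 and 52.3 to 92.4 CPM without, and rose by 0.61 ± 0.08 (adjusted p = 0.00169). The lists of 24 translation and ribosome genes and 28 cell cycle genes had no called member, with medians of 0.03 and 0.02. The 29 glycolysis and hypoxia genes tested had none either, with a median of 0.02. Hif1a, of that list, was called higher by DESeq2, the model with the Y-linked sum and the replicate block.

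One chemokine gene rose by a large factor. Ccl24 (ENSMUSG00000004814, chromosome 5, 135569937 to 135573049, minus strand), which encodes eotaxin-2, a ligand of the eosinophil receptor CCR3, stood at 11.3, 12.9 and 9.50 CPM under IL-10 alone and 46.4, 60.4 and 26.2 CPM with IL-10 and GM-CSF. It stood at 1.83, 1.36 and 1.12 CPM in untreated cells and 11.4, 7.05 and 15.3 CPM under GM-CSF alone. Within each setting the groups did not overlap, while the libraries with IL-10 alone lay among those with GM-CSF alone. The pooled log2 fold change was 2.29 ± 0.27 (adjusted p = 0.00163), a ratio of 4.89, and the GM-CSF term of the same model was 2.28 ± 0.27. None of the other 14 chemokine genes tested was called in either direction, and 3 were higher and 4 lower at an unadjusted p under 0.05 when Ccl24 is counted. The chemokines of CCR4, Ccl17 (-0.72, adjusted p = 0.428) and Ccl22 (-0.57, adjusted p = 0.515), did not pass. Without the 2 libraries that stood apart Ccl17 was called lower (adjusted p = 0.00393). The model with the Y-linked sum called Ccl7 (0.68, adjusted p = 0.0103) and Ccl9 (0.25, adjusted p = 0.036) higher, both monocyte chemoattractants.

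Receptors for chemoattractants, metabolites and type 2 cytokines were the other named group. Il1rl1, which encodes the interleukin-33 receptor ST2, stood at 370, 357 and 351 CPM under IL-10 alone and 351, 370 and 402 CPM with both cytokines, against 254, 247 and 231 CPM in untreated cells and 261, 314 and 231 CPM under GM-CSF alone. The groups did not overlap and the log2 fold change was 0.52 ± 0.07 (adjusted p = 0.00163). With Il4ra it made 2 called genes of the 31 cytokine receptors tested, whose median was 0.06. Il13ra1 did not pass in the main fit. DESeq2 (0.60, adjusted p = 0.0089), the model with the Y-linked sum (0.0174) and the replicate block (0.0453) called Il13ra1 higher. So did the fits without IL-10 and GM-CSF replicate 3 (0.0137) or without both libraries that stood apart (0.0187). Neither limma-voom (0.143) nor the model of all 24 libraries (0.0542) did. Il5ra and Csf2ra, the chains that bind IL-5 and GM-CSF, were at -0.06 and -0.13 and did not pass. Of 29 chemoattractant and lipid receptors, 3 were higher, Ffar2 and Gpr15 among them, with a list median of -0.06. Ffar2, the receptor for short-chain fatty acids, stood at 174, 203 and 225 CPM under IL-10 alone and 248, 261 and 297 CPM with both, against 148, 131 and 149 CPM in untreated cells and 156, 190 and 154 CPM under GM-CSF alone (0.59 ± 0.08, adjusted p = 0.00163). It was free of overlap within each setting and not across all 12 libraries.

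Gpr15, a receptor known to guide T cells to the colon, stood at 10.9, 10.6 and 10.8 CPM under IL-10 alone and 10.5, 10.9 and 8.59 CPM with both cytokines. It stood at 6.19, 6.05 and 5.81 CPM in untreated cells and 6.83, 6.67 and 7.01 CPM under GM-CSF alone, and rose by 0.69 ± 0.09 (adjusted p = 0.00163). Its exons overlap Cpox on the opposite strand, and whether the counting used strand is not given. Ccr3, the eotaxin receptor and a marker of eosinophils, was at -0.14 and Cxcr2, a receptor for neutrophil chemokines, at 0.45 ± 0.10 (adjusted p = 0.0935), neither called. DESeq2 (adjusted p = 0.0089), the fit without the 2 libraries that stood apart (adjusted p = 0.00154) and the replicate block (adjusted p = 0.0014) called Cxcr2 higher. Gpr35, a G protein-coupled receptor of gut and immune cells that belonged to no list, stood at 3.09 to 4.54 CPM with IL-10 and 1.27 to 2.09 CPM without, and rose by 1.17 ± 0.17 (adjusted p = 0.00214).

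On the cell surface, Cd244a, the SLAM-family receptor 2B4 that binds CD48, stood at 95.1, 86.7 and 82.4 CPM under IL-10 alone and 81.2, 89.0 and 84.5 CPM with both cytokines. Without IL-10 it stood at 50.5, 60.1 and 57.4 CPM in untreated cells and 57.1, 62.4 and 59.5 CPM under GM-CSF alone. The gap between 81.2 and 62.4 CPM left the groups apart, and the log2 fold change of 0.58 ± 0.06 had the third smallest p-value of all genes (adjusted p = 0.000338). Its ligand gene Cd48 was at -0.07. Lilrb4a, an inhibitory immunoglobulin-like receptor, stood at 617 to 917 CPM with IL-10 and 460 to 707 CPM without, and rose by 0.50 ± 0.07 (adjusted p = 0.00249). The neighbouring Lilr4b (0.47, adjusted p = 0.0144) and the predicted gene Gm49339 (0.49, adjusted p = 0.00163) were called too. Gm49339 shares exon sequence with both on the same strand, so the 3 calls are not independent. Of the 28 inhibitory and SLAM receptors tested, Cd244a and Lilrb4a were the 2 called, with a list median of -0.05, and Siglecf was at -0.11. Bst1, an ectoenzyme of the ADP-ribosyl cyclase family known as CD157, stood at 10.4 to 29.9 CPM with IL-10 and 5.74 to 12.6 CPM without (1.10 ± 0.17, adjusted p = 0.00627). Its exons overlap Fbxl5 on the opposite strand.

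Protease, matrix and organelle genes completed the named rises. Prtn3, the proteinase 3 of neutrophil granules, stood at 35.9, 41.0 and 50.2 CPM under IL-10 alone and 56.6, 50 and 43.5 CPM with both cytokines, against 30.5, 19.8 and 22.7 CPM in untreated cells and 25.1, 22.3 and 24 CPM under GM-CSF alone. The log2 fold change was 0.93 ± 0.11 (adjusted p = 0.000936). The other 15 neutrophil markers tested were not called, though Cxcr2 was in the alternatives given for it above. Their list had a median of 0.01, and its summed level was 2780 to 3210 CPM with IL-10 and 2690 to 3020 CPM without. Elane, the neutrophil elastase gene, was at no more than 1.16 CPM in any library, and the part of other cells in the rise of Prtn3 was not tested. Plppr3, a membrane protein known from neurons, was called at 1.11 ± 0.18 (adjusted p = 0.00868) and overlaps Prtn3 on the opposite strand.

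Casp4, the caspase that senses cytosolic lipopolysaccharide, stood at 6.34, 7.17 and 5.31 CPM under IL-10 alone and 6.27, 6.80 and 5.13 CPM with both cytokines. It stood at 3.33, 3.15 and 2.31 CPM in untreated cells and 3.76, 3.66 and 3.83 CPM under GM-CSF alone, and rose by 0.88 ± 0.14 (adjusted p = 0.00466). It was the 1 called gene of the 18 inflammasome and caspase genes tested, whose median was -0.02, with Casp1 at 0.20 and Nlrp3 at -0.22. DESeq2 and the model with the Y-linked sum called Casp6 higher as well. So did the fits without IL-10 and GM-CSF replicate 3 or without both libraries that stood apart. Vcan, which encodes the matrix proteoglycan versican, stood at 21.3 to 31.1 CPM with IL-10 and 9.08 to 20.6 CPM without (0.75 ± 0.11, adjusted p = 0.00405). Vps13c, a lipid transfer protein (0.69 ± 0.09, adjusted p = 0.000936), and B4galt6, an enzyme of lactosylceramide synthesis (0.56 ± 0.07, adjusted p = 0.000837), rose too. Vmp1, an endoplasmic reticulum protein needed for autophagosomes (0.37 ± 0.05, adjusted p = 0.00101), and Atp13a2, a lysosomal polyamine transporter (0.59 ± 0.08, adjusted p = 0.00187), were also higher. In all 4 the libraries with IL-10 and those without did not overlap. Vmp1 showed how narrow such a difference can be, with 68.6 to 85.1 CPM with IL-10 and 54.0 to 64.5 CPM without.

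The 2 lower genes were lower by little. Mogat2, an acyltransferase of triacylglycerol synthesis, stood at 148, 156 and 137 CPM under IL-10 alone and 112, 137 and 129 CPM with both cytokines, against 167, 194 and 200 CPM in untreated cells and 148, 167 and 165 CPM under GM-CSF alone. It fell by 0.34 on the log2 scale (SE 0.07, adjusted p = 0.0306). Tecpr1, which acts in the fusion of autophagosomes with lysosomes, stood at 47.8, 49.4 and 48.3 CPM under IL-10 alone and 48.1, 48.0 and 53.7 CPM with both cytokines, against 54.0, 62.7 and 61.0 CPM in untreated cells and 57.5, 60.5 and 59.4 CPM under GM-CSF alone. It fell by 0.27 (SE 0.05, adjusted p = 0.0412), and its 6 libraries with IL-10 lay below the 6 without. Mogat2 lost its call in 8 of the 12 fits that leave out 1 library (adjusted p up to 0.126) and Tecpr1 in 10 (up to 0.16), keeping it without untreated replicate 1 and without IL-10 and GM-CSF replicate 3. Mogat2 also kept it without IL-10 and GM-CSF replicate 2 and without GM-CSF replicate 1. Both genes lost the call in a model of 4 group means, in a model without the GM-CSF term and in a model of all 24 libraries. Tecpr1 lost it without a low-count filter too.

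None of the inflammatory genes that IL-10 lowers in activated macrophages was called. Of 26 listed genes 15 were expressed enough to be tested, 0 were called, and the median log2 fold change was -0.07, against 0 for all genes. At an unadjusted p under 0.05 there were 2 higher and 2 lower. Ccl7, called higher in the model with the Y-linked sum, is also on this list. Tnf stood at 18.8, 20.5 and 19.6 CPM under IL-10 alone and 43.1, 38.4 and 30.4 CPM with IL-10 and GM-CSF, against 30.7, 28.3 and 29.1 CPM in untreated cells and 45.4, 48.8 and 36.3 CPM under GM-CSF alone. Without GM-CSF the groups did not overlap and with GM-CSF they did, and the pooled log2 fold change was -0.39 ± 0.10 (adjusted p = 0.121). Other settings did call it lower, namely DESeq2 (-0.40, adjusted p = 0.0253), a model of all 24 libraries (-0.41, adjusted p = 0.0285) and the fits without IL-10 and GM-CSF replicate 1 (adjusted p = 0.0475) or without GM-CSF replicate 3 (adjusted p = 0.0289). Il1b stood at 1.60, 1.21 and 1.63 CPM under IL-10 alone and 15.7, 15.6 and 8.54 CPM with both, against 4.63, 2.72 and 2.16 CPM in untreated cells and 15.7, 11.2 and 8.31 CPM under GM-CSF alone. Its log2 fold change was -0.26 ± 0.28 (adjusted p = 0.815). Ccl3 was at -0.31 (adjusted p = 0.401), and Il6 at -0.16 and Cxcl2 at -0.16 did not pass.

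No gene on the lists of eosinophil granules, antigen presentation or checkpoint ligands was called. Prg2 had a log2 fold change of 0.06 ± 0.06 (adjusted p = 0.813) and Epx of 0.05 ± 0.07 (adjusted p = 0.849). Nearest to the threshold among the 11 granule genes tested was Srgn, the core protein of granule proteoglycans, at 0.35 ± 0.07 (adjusted p = 0.0541), which DESeq2 (adjusted p = 0.000509), the model with the Y-linked sum (0.00143) and the fits without IL-10 and GM-CSF replicate 3 (0.0233) or without both libraries that stood apart (0.0225) called higher. Cd274, the gene of the checkpoint ligand PD-L1, was at 0.26 ± 0.11 (adjusted p = 0.441). No member was called among 13 genes of class II presentation, 17 of class I presentation, 15 costimulatory and checkpoint ligands, 20 interferon-stimulated genes, 16 BCL2 family genes or 21 genes of the Toll-like receptor pathway, and the medians of these lists ran from -0.07 to 0.19. Among them the model with the Y-linked sum called Lgmn and Ctsl higher, both endosomal proteases of the class II list, and DESeq2 called Cd83 lower (adjusted p = 0.0404). DESeq2 and the model with the Y-linked sum both called Trim30a, an interferon-stimulated gene, higher. The main fit also called no member among 20 Fc receptors and lectins, 18 lineage factors, 32 immediate early genes and ERK brakes, 16 genes of haem and iron handling and 16 of lipid mediator synthesis, with medians from -0.07 to 0.06. Of these lists, DESeq2 and the model with the Y-linked sum called the Fc receptor gene Fcgr2b higher. The model with the Y-linked sum called Nr4a1, of the immediate early list, lower. Pla2g7, of the lipid mediator list, was called higher by DESeq2, without the 2 libraries that stood apart and with the replicate block. Of 19 NF-kB and IkB genes, Bcl3 was the 1 called, with a list median of -0.06. The list of 31 alternative activation and remodelling genes had 0 called and 8 higher at an unadjusted p under 0.05, against 5.28% of all genes. Of this list, DESeq2 and the model with the Y-linked sum called Timp1 higher, and the replicate block called Spp1 higher. Plaur was called lower without IL-10 and GM-CSF replicate 3 and without both libraries that stood apart. Mrc1, the mannose receptor, stood at 91.6, 71.9 and 36.1 CPM under IL-10 alone and 21.7, 62.3 and 8.44 CPM with both cytokines, against 15.7, 22.3 and 23 CPM in untreated cells and 6.15, 1.86 and 17.2 CPM under GM-CSF alone. Its log2 fold change of 1.81 ± 0.54 had an adjusted p of 0.258. In all groups but the untreated one, the highest of the 3 libraries was more than 2 times the lowest. Within every group, Mrc1 was higher where the Y-linked sum was low. The model with the Y-linked sum called it (adjusted p = 0.038). None of 18 tested monocyte and macrophage markers was called, and their sum was 2380 to 2870 CPM with IL-10 and 2420 to 2740 CPM without.

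**Figure D3:**
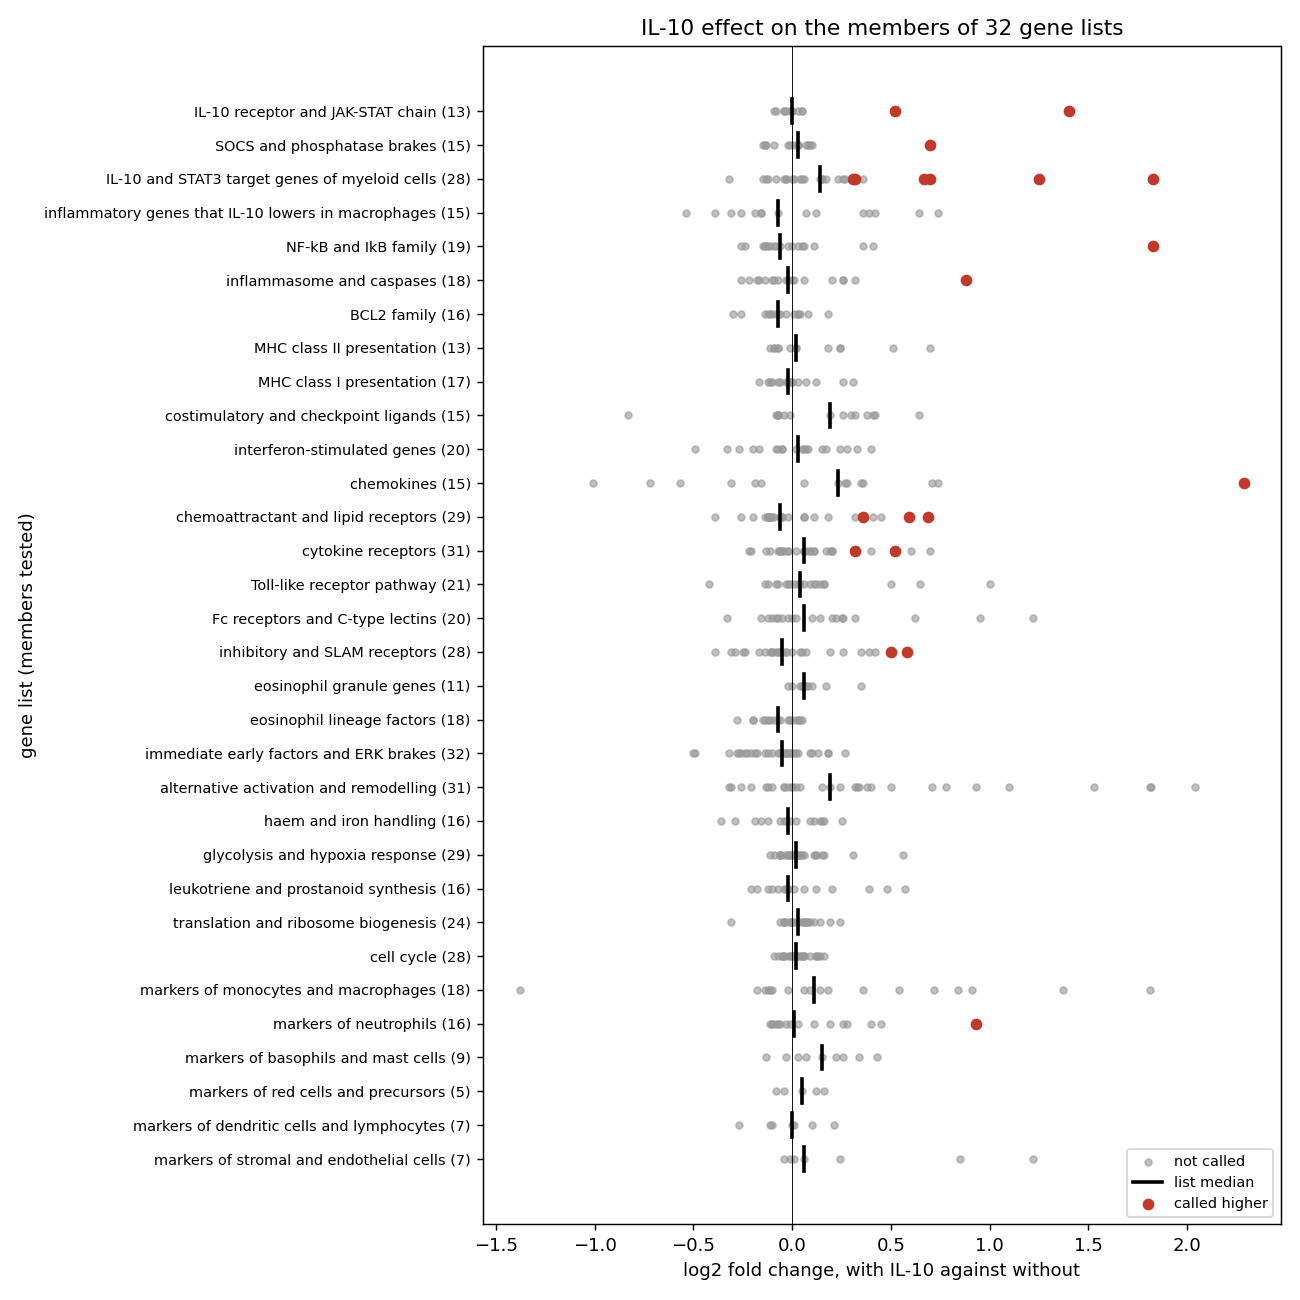
Pooled log2 fold change (horizontal axis, with IL-10 against without) of every tested member of 32 gene lists, 1 row per list with the number of members tested. Called genes are red and the black tick is the list median. Medians lie between -0.07 and 0.23. The IL-10 and STAT3 target list has 6 red points among its 28 members. Of the red points, Sbno2, Il4ra and Arid5a lie within the range of the grey points, and Socs3 lies level with the grey point of Il6st.

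Some summed levels of marker genes of other cells were higher with IL-10, and their part in the results was not tested. The 9 basophil and mast cell markers summed to 587 to 715 CPM with IL-10 and 531 to 697 CPM without, with none called. Mcpt8, a basophil protease gene, was at 0.34 (adjusted p = 0.113), and DESeq2 (adjusted p = 0.0263), the model with the Y-linked sum (0.0365) and the fit without the 2 libraries that stood apart (0.0194) called it higher. The 7 tested stromal and endothelial markers summed to 513, 514 and 536 CPM under IL-10 alone against 482, 445 and 450 CPM in untreated cells, and to 578, 573 and 657 CPM with both cytokines against 515, 533 and 461 CPM under GM-CSF alone, with no overlap in either setting. Nearly all of that sum was Pecam1, a surface protein that granulocytes also carry, at 0.24 ± 0.05 (adjusted p = 0.0722), which the same 3 alternatives called higher (adjusted p = 0.000398 to 0.0338), while the collagen gene Col1a1 was at no more than 4.82 CPM in any library. Red cell markers summed to 328 to 396 CPM with IL-10 and 299 to 358 CPM without, free of overlap in the setting without GM-CSF, with none of 5 tested called, and dendritic cell and lymphocyte markers, with none of 7 tested called, to 93.6 to 124 CPM with IL-10 and 85.4 to 116 CPM without.

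The pooled effect was read next within each GM-CSF setting, from a model with 1 mean for each of the 4 groups. All 50 higher genes had a positive and both lower genes a negative log2 fold change in each setting, which the choice of genes by their pooled effect largely fixes. Within both settings, 47 of the 50 higher genes had no overlap between the 3 libraries with IL-10 and the 3 without, against 134 of all tested genes (1.16%). Both lower genes were free of overlap in each setting, as were 67 of all tested genes in that direction (0.579%). Taken alone, the setting without GM-CSF gave 14 calls of 11671 genes (0.12%) and the setting with GM-CSF gave 4 (0.0343%), and 3 of the 52 genes, Bcl3, Lrg1 and Jak3, were called in both. The other genes called in a setting alone were Cd244a, Pim2, B4galt6, Stat3, Gja1, Vps13c, Arid5a, Ccl24, Gpr15, Casp4 and Tha1 without GM-CSF and Prtn3 with it. In 37 of the 52 neither setting alone passed. Bcl3 had log2 fold changes of 1.84 ± 0.22 with GM-CSF and 1.81 ± 0.23 without it, Stat3 of 0.50 ± 0.10 and 0.55 ± 0.10, and Il1rl1 of 0.48 ± 0.10 and 0.56 ± 0.10 in the same order.

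The difference between the IL-10 effects in the 2 settings was tested as an interaction, and edgeR called 0 genes, with a smallest adjusted p of 1. At an unadjusted p under 0.05 there were 215 genes (1.84%), of which Tha1 was the 1 gene among the 52. limma-voom called 0 and DESeq2 called 1, Egr1, an immediate early factor, at a difference of 1.66 (adjusted p = 7.15e-05). For Ccl24 the IL-10 effect was 1.99 ± 0.31 with GM-CSF and 2.95 ± 0.42 without it, a difference of -0.96 ± 0.54 (unadjusted p = 0.0993). Il1b had the values 0.16 ± 0.28 with GM-CSF and -1.12 ± 0.40 without it, a difference of 1.28 ± 0.49 (unadjusted p = 0.0209) that did not survive adjustment. For Tnf they were -0.23 ± 0.13 and -0.58 ± 0.13, a difference of 0.35 ± 0.18 (unadjusted p = 0.0769). A gene called in one setting and not in the other is not shown to differ between them.

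**Figure D4:**
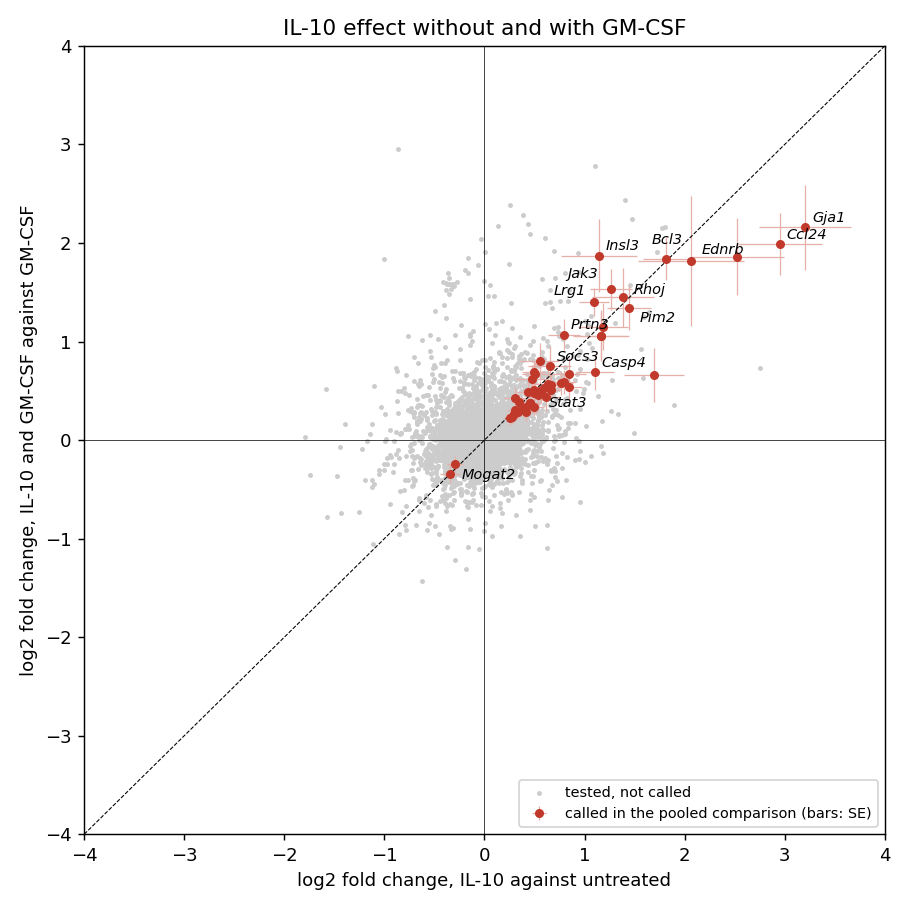
Log2 fold change of IL-10 within each setting, with GM-CSF (vertical axis, IL-10 and GM-CSF against GM-CSF) and without it (horizontal axis, IL-10 against untreated), for the tested genes within 4 of 0 on both axes, which leaves out 1. The called genes, chosen by their pooled effect, are in red with SE bars. Many lie near the dashed line of equal effects, such as Bcl3 at 1.84 and 1.81. Further from the line lie Ccl24 at 1.99 and 2.95, Gja1 at 2.16 and 3.2, Tha1 at 0.66 and 1.69, and Insl3 at 1.87 and 1.14.

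The GM-CSF term of the same model called 517 genes (4.47%), 349 higher (3.02%) and 168 lower (1.45%). Both terms were fitted to the same 12 libraries, so their values are given side by side only. More of the libraries with a high Y-linked sum had GM-CSF than not, and the part of this in the GM-CSF calls was not tested. Of the 50 genes higher with IL-10, 11 were also called higher with GM-CSF, 0 were called lower and 39 were not called. The 11 were Ccl24, Socs3, Slc7a5, Vcan, Lilrb4a, Gm49339, P2ry1, Ffar2, Il4ra, Vmp1 and Pdia4. Ccl24 had 2.29 ± 0.27 for IL-10 and 2.28 ± 0.27 for GM-CSF. Socs3 had 0.70 ± 0.14 and 0.73 ± 0.14 in that order. For Bcl3 the values were 1.83 ± 0.15 for IL-10 and 0.19 ± 0.15 for GM-CSF, for Jak3 1.40 ± 0.15 and 0.00 ± 0.14, and for Stat3 0.52 ± 0.06 and -0.16 ± 0.06. Tnf had -0.39 ± 0.10 for IL-10 and 0.74 ± 0.10 for GM-CSF, for which GM-CSF passed (adjusted p = 0.000446) and IL-10 did not.

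**Figure D5:**
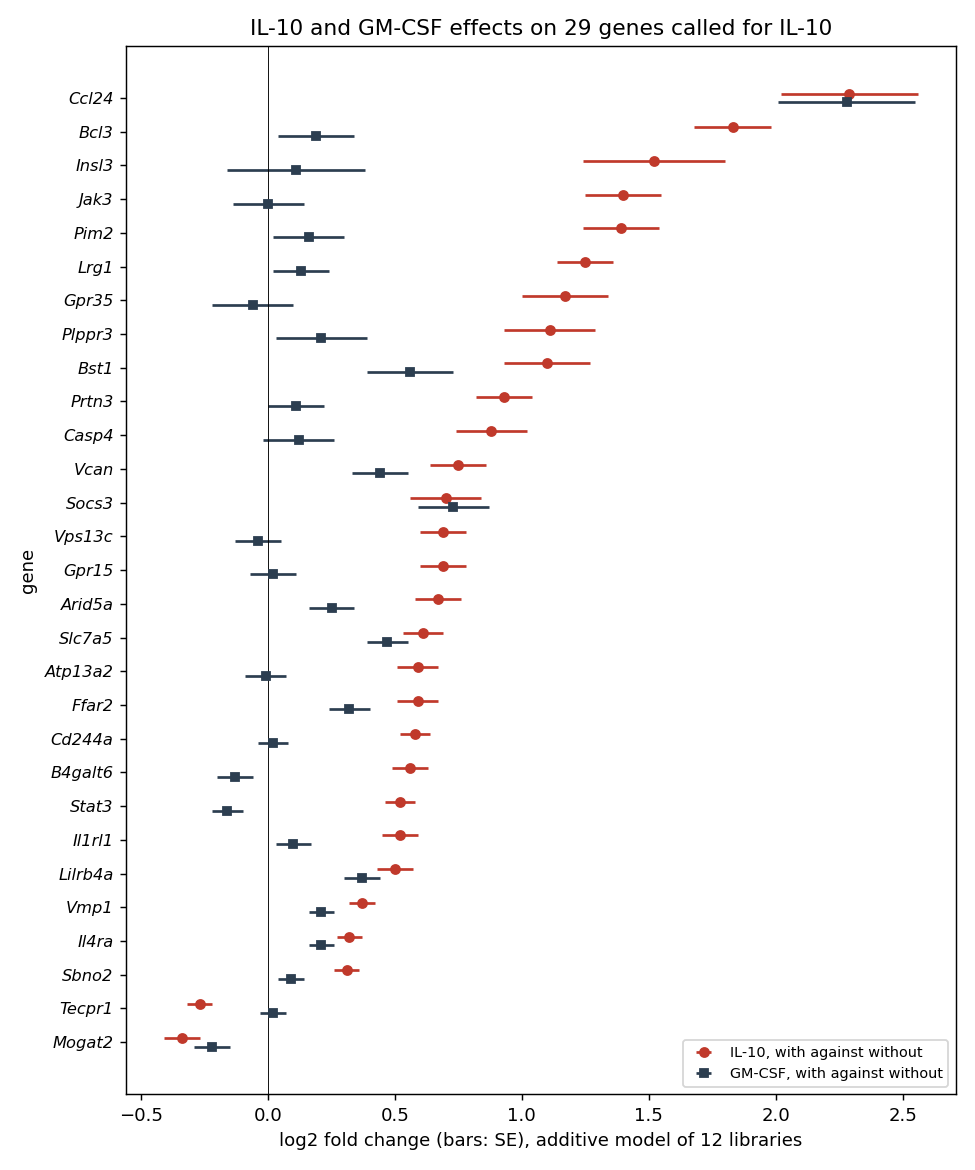
Log2 fold change and SE of IL-10 (red circles, with against without) and of GM-CSF (dark squares, with against without) from 1 additive model of 12 libraries, for 29 called genes that the text names (vertical axis). Ccl24 and Socs3 have like values for both cytokines, while Bcl3, Jak3 and Lrg1 lie near 0 for GM-CSF.

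Beside the called genes named by rule, 22 further genes were called, Lilr4b and Gm49339 among them. Of these, 5 had a mean under 2 CPM and rest on few reads. Gja1, the gap junction protein connexin 43, had the largest log2 fold change of the 52 (2.64 ± 0.32, adjusted p = 0.000936), from 40, 38 and 21 reads with IL-10 and 12, 26 and 35 with both cytokines, against 4, 5 and 1 untreated and 7, 6 and 4 with GM-CSF. Ednrb, an endothelin receptor (1.97 ± 0.40), lost its call in 10 of the 12 fits that leave out 1 library and was kept without IL-10 and GM-CSF replicate 1 or 3. The others of this kind were Rhoj (1.42), Tha1 (1.12) and the predicted gene Gm43181 (2.12). The rises among the better expressed of the 22 included Pdia4, a protein disulfide isomerase (0.25 ± 0.05), Ikzf3, the lymphocyte factor Aiolos (0.28 ± 0.06), Gk, glycerol kinase (0.60 ± 0.12), and Hp, the acute phase protein haptoglobin (0.68 ± 0.13). Of the 12 fits that leave out 1 library, Pdia4, Ikzf3 and Tha1 kept the call in 2, Hp in 3 and Gk in 6. Of the 52, 13 lay within 100000 bases of another called gene, among them Jak3 and Insl3, Prtn3 and Plppr3, the Lilrb4a group, Tha1 and Socs3, which are 92598 bases apart, and Man2a2 and Blm.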

How the data were processed

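RNA was sequenced from 24 samples of cultured mouse eosinophils, of which the 12 wild-type libraries were used here, with the other 12 entering only 1 alternative fit. The deposited files hold raw read counts per gene, and for the steps behind them the submitters' processing notes name STAR, featureCounts and the build GRCm38.p6. Tool versions and the strand setting of the counting are not given there or in the labels. Each file lists 25746 genes, and the 111 without a symbol held 0.0363% of counts.

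Libraries were grouped by the treatment in their labels. Genes were filtered with filterByExpr, scaled by TMM and fitted in edgeR 4.0.16 (R 4.3.3) with an IL-10 and a GM-CSF term, and tested with the robust quasi-likelihood F-test, Benjamini-Hochberg adjustment and a threshold of 0.05. SE were derived from F. The effects within each GM-CSF setting and their difference came from a model of the 4 group means. Steps were tested on simulated data. Gene positions come from GENCODE gene models on GRCm38 and promoter sequences from RefSeq.

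Named genes were those called with a mean of at least 2 CPM, a symbol that is no predicted model and the same sign in both settings: the 15 largest rises, the 15 largest falls (2 existed) and the 10 next smallest p-values, plus called members of 33 lists (656 genes) and 13 genes always given. Members and lists were chosen with earlier results of these data known. One named gene is not reported here. Any other gene was chosen after its values were seen. Alternatives were RLE size factors, no or a stricter low-count filter, DESeq2 1.42.0, limma-voom (limma 3.58.1), no robust moderation, other models, a log2 fold threshold of 0.5, a replicate block and leaving out each library. Counts of 11653200 to 18709153 per library set the precision, and genes under 2 CPM rest on few reads.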

Additional observations from a re-analysis of the deposited data

Results flagged for a closer look

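Within the 6 libraries with IL-10 or the 6 without, 4 of the 78 sets of values checked (39 genes) had 1 library far from the other 5. Chance alone marks about 1 in 20 sets of 6 values from 1 normal population. Each set here mixes libraries with and without GM-CSF, so that rate may not hold. On log2(CPM + 1), the gap to the nearest library was divided by the range of the 6. It was above Dixon's 95% critical value for 6 values in each, at 0.699 to 0.822. Gpr15 stood at 8.59 CPM in IL-10 and GM-CSF replicate 3, the nearest library with IL-10 being at 10.5 CPM. Tecpr1 stood at 53.7 CPM in the same library, with the nearest at 49.4 CPM. Il10ra, the ligand-binding receptor chain, stood at 96.1 CPM there, with the nearest at 143 CPM. IL-10 and GM-CSF replicate 3 is also 1 of the 2 libraries that stood apart in the principal components. Sbno2 stood at 149 CPM in GM-CSF replicate 2, the other library of that pair, with the nearest library without IL-10 at 129 CPM.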

How the results depend on the processing

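Against 52 genes called, 50 higher and 2 lower, RLE size factors, no filter, a stricter filter, limma-voom and no robust moderation gave 47 to 50 calls. DESeq2 called 163 (120 higher, 43 lower) and the Y-linked level as covariate 177 (132 and 45), each with all 52 among them. Leaving GM-CSF out of the model gave 28 (28 higher, 0 lower) and a log2 fold threshold of 0.5 gave 7 (7 and 0). All 24 libraries gave 41 (40 higher, and Tnf as the 1 lower gene), with 36 of the 52 among them. The model of 4 group means gave 41 (41 higher, 0 lower). Without the 2 libraries that stood apart, an alternative chosen after seeing the data, 124 were called (109 higher, 15 lower). The cause of these differences was not tested. Fits that left out 1 library called 30 to 92 genes, with 30 to 85 higher and 0 to 11 lower, the highest of the last without GM-CSF replicate 1. Of the 52, 30 were called in all 12 such fits, and 15 were lost in at least 6. The 7 genes past the fold threshold were Bcl3, Lrg1, Gja1, Ccl24, Jak3, Pim2 and Gm43181. The difference between settings stayed at 0 calls under every alternative run except DESeq2, with 1. For single named genes, 871 values kept their side of the threshold, 100 lost the call, 4 gained it (all Tnf) and 0 changed sign with a call. Changes of sign without a call count among the 871, such as Il10ra at 0.02 without IL-10 and GM-CSF replicate 3. The labels give groups no shared replicate number. Their title numbers run in sets of 4, and taking the position in a set as a replicate block, a pairing the labels do not state, gave 97 calls (78 higher, 19 lower), 50 of the 52 among them. The block fit was also chosen after seeing the data. The Y-linked sum was 172 to 181 CPM at the first position of the sets and 46.8 to 60.7 CPM at the third. At the last position it was 171, 56.1 and 52.5 CPM, and the second held only GM-CSF replicate 2. Whether groups shared donors by position was not tested, and the main fit takes no account of such a pairing. With 3 libraries a group, genes near the threshold, Socs3, Mogat2 and Tecpr1 among them, turned on single libraries.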
